A study of Mus musculus with 6 samples.

Results

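The genes described are 10 feedback inhibitors of MAP kinase signalling: the dual-specificity phosphatases Dusp1, Dusp4, Dusp5, Dusp6 and Dusp10, the Sprouty genes Spry1, Spry2 and Spry4, and the Spred genes Spred1 and Spred2. They were taken by gene symbol from the 54532 genes of the deposited expression table, and all 10 symbols were found. The RNA came from cells labelled as vascular smooth muscle cells. Per the study's methods, they were passaged primary cultures isolated from the abdominal aorta of wild-type mice by collagenase digestion. For 3 libraries (Ad-Con) the cells had received an adenovirus with a control plasmid, and for the other 3 (Ad-PDK4) one with a plasmid for overexpression of PDK4, a kinase that switches off the pyruvate dehydrogenase complex. Per the study, both groups were then treated with angiotensin II, so no library shows the genes without this peptide, which itself activates MAP kinases in smooth muscle. The labels give the genotype of the Ad-Con cells as WT and that of the Ad-PDK4 cells as PDK4 overexpression, and name no further allele. The study calls the 3 libraries of a group biological replicates, without saying whether they came from separate animals, so the p-values measure the spread between these libraries, which may be partly technical.

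MAP kinases relay signals from growth factor receptors and from stress sensors through chains of kinases. In the ERK chain, an activated receptor tyrosine kinase loads RAS with GTP, and RAS then activates RAF, MEK and ERK. The JNK and p38 chains respond mostly to stress and cytokines. The dual-specificity phosphatases remove phosphate from both the threonine and the tyrosine that activate a MAP kinase. Sprouty and Spred proteins act further upstream, between the receptor and RAF, and Spred proteins do so by bringing the RAS inhibitor neurofibromin to the membrane. Many of these inhibitors are transcribed in response to the kinase they restrain, which closes a negative feedback loop. In vascular smooth muscle, ERK signalling is known for its part in proliferation and in the loss of the contractile state.

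The promoter sequences below are given for the 4 inhibitors whose transcripts rose (Spry2, Dusp6, Spred1, Spred2) and for Dusp1, the inhibitor with the highest level in the Ad-Con libraries. RefSeq sequence of GRCm38.p6 was matched for 8 of the 10 genes, Dusp4 and Spry4 being the exceptions. Each sequence holds 250 bases before and 50 bases after the RefSeq start and reads 5′ to 3′ on the gene's own strand. For some genes this start differs from that of the gene counted here. The Spred1 window ends before the counted gene begins (chr2:117121374), and the Dusp10 window, not printed, lies inside its gene. The positions are chr14:105896770-105897069 (minus strand) for Spry2, chr10:99262981-99263280 (plus strand) for Dusp6, chr2:117120821-117121120 (plus strand) for Spred1, chr11:19924192-19924491 (plus strand) for Spred2 and chr17:26508423-26508722 (minus strand) for Dusp1. Capitals mark matches, on either strand, to the 8 motifs searched.
Spry2: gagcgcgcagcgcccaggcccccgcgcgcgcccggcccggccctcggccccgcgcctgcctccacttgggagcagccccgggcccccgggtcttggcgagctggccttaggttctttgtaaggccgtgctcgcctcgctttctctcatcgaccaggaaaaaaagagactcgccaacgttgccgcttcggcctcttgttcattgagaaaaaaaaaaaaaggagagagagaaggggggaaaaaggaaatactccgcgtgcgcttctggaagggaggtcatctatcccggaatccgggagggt
Dusp6: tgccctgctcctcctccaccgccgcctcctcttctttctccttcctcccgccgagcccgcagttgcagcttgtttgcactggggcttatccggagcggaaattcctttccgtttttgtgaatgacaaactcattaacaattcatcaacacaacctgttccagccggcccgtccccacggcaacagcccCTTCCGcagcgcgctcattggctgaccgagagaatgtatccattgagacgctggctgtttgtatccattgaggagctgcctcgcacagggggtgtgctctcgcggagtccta
Spred1: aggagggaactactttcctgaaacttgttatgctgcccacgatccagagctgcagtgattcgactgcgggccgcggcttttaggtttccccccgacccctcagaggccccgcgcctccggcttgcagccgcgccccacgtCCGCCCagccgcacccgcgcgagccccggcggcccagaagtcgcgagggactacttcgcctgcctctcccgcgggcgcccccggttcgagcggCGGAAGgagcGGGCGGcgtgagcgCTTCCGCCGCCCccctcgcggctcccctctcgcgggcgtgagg
Spred2: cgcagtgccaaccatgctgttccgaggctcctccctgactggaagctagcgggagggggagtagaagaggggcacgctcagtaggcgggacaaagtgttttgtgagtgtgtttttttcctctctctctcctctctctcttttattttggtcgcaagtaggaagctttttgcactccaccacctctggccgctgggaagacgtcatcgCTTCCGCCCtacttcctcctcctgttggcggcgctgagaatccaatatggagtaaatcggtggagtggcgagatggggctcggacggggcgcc
Dusp1: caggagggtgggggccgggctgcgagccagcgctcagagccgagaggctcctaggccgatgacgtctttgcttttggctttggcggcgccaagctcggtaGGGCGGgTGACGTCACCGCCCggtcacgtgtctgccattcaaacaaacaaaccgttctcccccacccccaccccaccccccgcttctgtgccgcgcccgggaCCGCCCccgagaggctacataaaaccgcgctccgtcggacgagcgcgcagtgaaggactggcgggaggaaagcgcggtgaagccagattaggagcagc

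The motifs searched were the cyclic AMP response element (CRE, TGACGTCA), an ETS core (CGGAAG), the AP-1 site (TGANTCA), the GC box (GGGCGG), the GAS element (TTCNNNGAA), the interferon-stimulated response element, the CArG box bound by serum response factor and the NF-kB site. ETS factors are classical targets of ERK, and CRE-binding proteins respond to cyclic AMP and to several kinases. The CGGAAG core was in the windows of Dusp6 (62 bases upstream of the RefSeq start), Spred1 (17 bases upstream) and Spred2 (43 bases upstream). The Spred2 match overlapped a GC box match, and Spred1 had a second match after its RefSeq start. Of the 32851 promoters of the same length, 16.9% held the core. The full CRE was in the window of Dusp1, 143 bases upstream of the start, beside 1.79% of all promoters. The CArG box was matched in the window of Dusp5, at 82 and 72 bases upstream, beside 1.63% of all promoters. GC boxes were in the windows of Dusp1, Dusp5, Dusp10, Spry1, Spred1 and Spred2, beside 35.7% of all promoters. None of the 8 windows held the AP-1 letters (7.81% of all promoters), the GAS letters (8.3%), the interferon-response letters (3.44%) or the NF-kB site (8.46%), and the Spry2 window held none of the 8 motifs. These matches describe letters in a window and say nothing about binding.

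The depth of the libraries and the check of the labels come first. The 6 libraries held 17588942 to 21861872 reads assigned to genes, and a read in a transcript of 1 kb was worth 0.0453 to 0.0571 FPKM (fragments per kilobase of transcript, scaled to the library size). The inhibitors were well covered, at 83 to 2720 reads per gene and library. Pdk4 itself was lower in the libraries labelled Ad-PDK4. Its level was 9.50, 10.4 and 10.1 FPKM in the Ad-Con libraries and 7.67, 7.40 and 7.38 FPKM in those labelled Ad-PDK4, and the groups did not overlap. This was a log2 fold change of -0.42 (limma, SE 0.0609, adjusted p = 0.00114). The study's methods describe a PDK4 plasmid cloned with the primer pair listed elsewhere in the study for mouse PDK4, and do not say whether the adenoviral vector was made from it. How far reads of the vector's sequence were counted under Pdk4 was not tested. The direction of every difference below therefore rests on the labels as deposited, and Ad-PDK4 means the libraries labelled so. The mitochondrial chromosome took 6.95% to 7.44% of summed FPKM in the Ad-Con libraries and 3.02% to 4.15% in the Ad-PDK4 libraries, and its part in the values below was not tested.

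The labelled cell type was checked on marker genes, the study having judged purity by staining for alpha smooth muscle actin. Of 8 smooth muscle markers, Acta2 (alpha smooth muscle actin), Smtn and Lmod1 passed the filter, and Acta2 fell by 1.11 on the log2 scale. Tagln, Myh11, Cnn1, Des and Mylk had a mean under 0.5 FPKM over the 6 libraries and at least 1 read in each. Mylk, the myosin light chain kinase, was at 0.597 to 0.849 FPKM in the Ad-Con libraries and 0.0965 to 0.142 FPKM in the Ad-PDK4 libraries, Cnn1 at 0.416 to 0.539 against 0.167 to 0.341 FPKM and Des at 0.152 to 0.235 against 0.0362 to 0.0586 FPKM. These 3 did not overlap between the groups and were lower under the Ad-PDK4 label, while Tagln and Myh11 overlapped, and none of the 5 was tested. Over the 6 libraries Tagln was at 0.115 to 0.555 FPKM (4 to 20 reads) and Myh11 at 0.0119 to 0.0723 FPKM (2 to 10 reads). Markers of contractile smooth muscle other than Acta2 and Smtn were thus at low levels in both groups. The summed smooth muscle level was 87.8 to 89.4 FPKM in the Ad-Con libraries and 43.3 to 48.1 FPKM in the Ad-PDK4 libraries. The 7 fibroblast markers summed to 1430 to 1555 FPKM against 738 to 805 FPKM, with 1 called higher (Dcn) and 4 lower (Dpt, Col1a1 and Lum the most) of 6 tested. Acta2 made up most of the smooth muscle sum (means of 78.0 and 36.2 FPKM) and Col1a1 most of the fibroblast sum (1055.5 and 434.8 FPKM). Smtn (log2 fold change 0.018), Lmod1 (-0.29) and Pdgfra (-0.046) were not called. Both sums were lower under the Ad-PDK4 label, and in bulk RNA fewer cells of a type and less RNA per cell cannot be told apart. The part of cell make-up in the differences described below was not tested. The 7 endothelial markers summed to 0.617 to 0.798 FPKM against 0.885 to 1.18 FPKM, with Tie1 and Emcn at 0 reads in all 6 libraries. Kdr made up most of this sum (means of 0.536 and 0.919 FPKM) and was not called. Pecam1 and Vwf had lower means in the Ad-PDK4 libraries and Cdh5 and Tek higher ones, all with overlapping groups. These means rest on few reads. Cdh5 had 4 reads in Ad-PDK4 replicate 1 and 0 in every other library, and Tek had 0 to 3 reads per library. Pecam1 had 3 to 17 reads per library and Vwf 7 to 23. The 8 macrophage markers summed to 15.0 to 17.9 FPKM against 5.91 to 7.44 FPKM, with Ptprc, Tyrobp, C1qa and C1qb at 0 reads in all 6 libraries. Most of this sum came from Cd68, which was called lower (means of 14.2 and 4.24 FPKM). Csf1r (means of 0.258 and 0.640 FPKM, not tested) and Lyz2 (1.51 and 1.98 FPKM, not called) were instead higher, without overlap.

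The transcripts of 4 inhibitors rose in the Ad-PDK4 libraries: Spry2, Dusp6, Spred1 and Spred2. The gain was between 1.26-fold and 1.92-fold, with Spry2 changing most and no gene reaching 2-fold. No inhibitor fell. The most abundant inhibitors, Dusp1 and Dusp4, kept overlapping values in the 2 groups, as did Dusp5, Dusp10 and Spry1. Fold changes are on the log2(FPKM + 0.1) scale throughout, Ad-PDK4 minus Ad-Con, from limma over the 13423 genes with a mean of at least 0.5 FPKM, and calls were made where the adjusted p was below 0.05.

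All 10 inhibitors passed the filter on low values. The 4 called higher stand beside 21.8% of all tested genes called higher, and the 0 called lower beside 20.8% of all tested genes called lower. At an unadjusted p below 0.05, limma gave 5 higher and 0 lower. After adjustment, limma-voom on reads recovered from the FPKM values gave 5 higher and 0 lower. Over all tested genes, limma-voom also called more genes than limma did, both higher and lower. The share of all tested genes at the unadjusted threshold was not taken. The count of 5 at that threshold therefore has no matching share here. Limma-voom tested the same 13423 genes. Its 5 inhibitors called higher thus stand beside a share above 21.8%, and its 0 called lower beside a share above 20.8%. The shares printed here belong to limma after adjustment. Adding the limit of a 2-fold change left 0 inhibitors, beside 3.95% of all tested genes. The groups did not overlap, with all Ad-PDK4 libraries above all Ad-Con libraries, for 5 inhibitors and for 27.8% of all tested genes. The log2 fold change was positive for 9 of the 10, with a median of 0.27 beside -0.003 over all tested genes, whose quartiles were -0.26 and 0.24. No test of the list as a whole was run, and the values of each gene follow.

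**Figure D1:**
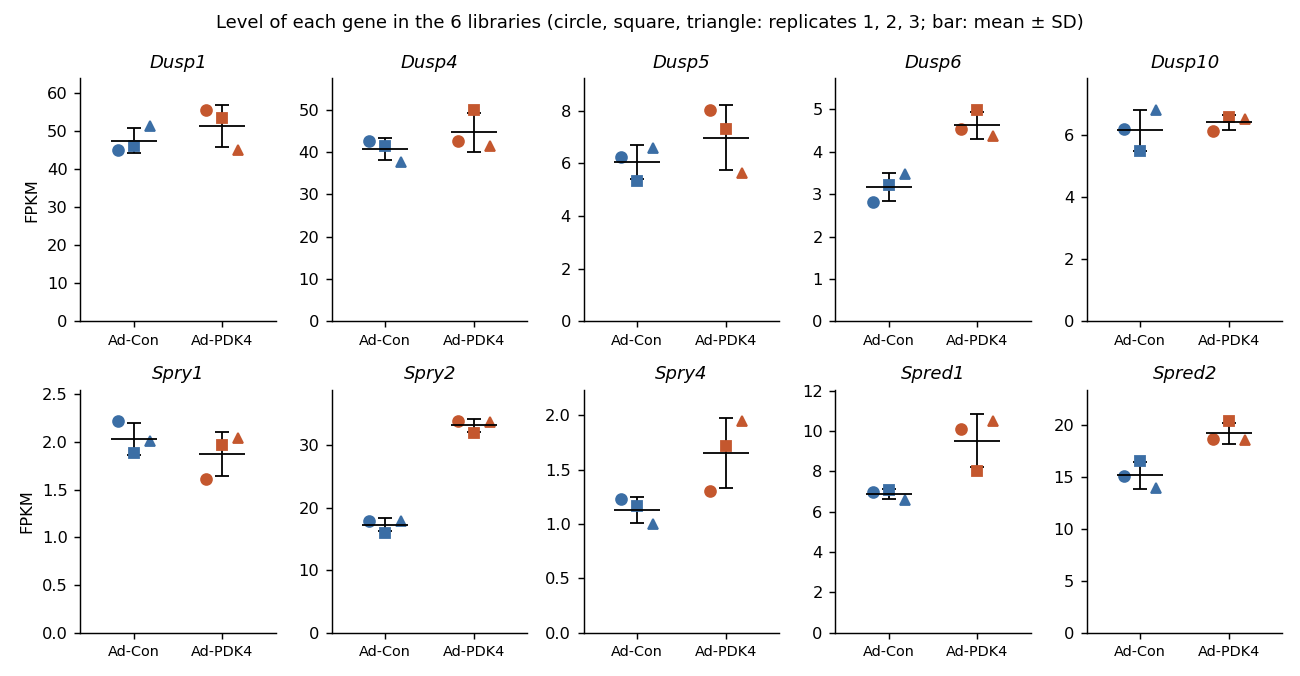
Level of each of the 10 inhibitors in FPKM (vertical axis, from 0, with its own scale per gene) in the 3 Ad-Con and 3 Ad-PDK4 libraries. Circles, squares and triangles are replicates 1, 2 and 3, and bars give the mean ± SD. The Spry2 points sit at 16.0 to 17.96 FPKM against 32.0 to 33.8 FPKM, while those of Dusp1 lie at 44.9 to 51.2 FPKM against 44.9 to 55.4 FPKM.

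Among the Sprouty genes, whose products restrain RAS activation downstream of growth factor receptors, Spry2 carried the difference. Spry2 (ENSMUSG00000022114, chr14:105891947-105896819, minus strand) was at 17.96, 16.0 and 17.87 FPKM in the Ad-Con libraries and at 33.8, 32.0 and 33.8 FPKM in the Ad-PDK4 libraries. All 3 Ad-PDK4 libraries were far above all 3 Ad-Con libraries, and the spread within each group was small. The means were 17.3 ± 1.08 and 33.2 ± 1.01 FPKM (SD, n = 3 each), a log2 fold change of 0.94 (SE 0.0609), or 1.92-fold with a 95% confidence interval of 1.74 to 2.11, at limma adjusted p = 1.6e-05. This was the highest of the 10 fold changes and lay at percentile 94.99 of all tested genes.

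Spry4 (ENSMUSG00000024427, chr18:38586268-38601268, minus strand), a Sprouty protein that also acts on RAS-dependent signalling, was at 1.23, 1.17 and 0.998 FPKM in the Ad-Con libraries and at 1.31, 1.72 and 1.94 FPKM in the Ad-PDK4 libraries. The groups did not overlap, but the lowest Ad-PDK4 value lay close to the highest Ad-Con value. With 83 to 197 reads per library, the log2 fold change was 0.50 (SE 0.176), with a 95% confidence interval of 0.0905 to 0.907 and limma adjusted p = 0.0526. Spry4 therefore missed the threshold, and it passed it in 3 of 14 alternatives: rescaling to TPM, limma-voom, and leaving out Ad-PDK4 replicate 1 (log2 fold change 0.65, adjusted p = 0.0255).

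Spry1 (ENSMUSG00000037211, chr3:37639947-37644598, plus strand), known for its role in growth factor signalling during kidney development, had the one negative log2 fold change of the 10. It was at 2.21, 1.88 and 2.01 FPKM in the Ad-Con libraries and at 1.61, 1.97 and 2.04 FPKM in the Ad-PDK4 libraries. The groups overlapped, with Ad-PDK4 replicate 1 the lowest of the 6. A log2 fold change of -0.12 (SE 0.13) came with a 95% confidence interval of -0.42 to 0.18 and limma adjusted p = 0.496. A gene of uncertain coding status, Gm42922, shares 20.8% of the Spry1 transcript on the opposite strand. It was at 0.055 FPKM or less in each library.

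The balance between the Sprouty transcripts differed accordingly. The ratio of Spry2 to Spry1 levels, both in FPKM and so corrected for length, was 8.11, 8.53 and 8.88 in the Ad-Con libraries and 21.03, 16.3 and 16.5 in the Ad-PDK4 libraries. Spry2 made up 83.9% to 85.6% of the summed Sprouty FPKM in the Ad-Con libraries and 89.4% to 92.1% in the Ad-PDK4 libraries. The summed level itself was 21.4, 19.1 and 20.9 FPKM against 36.7, 35.7 and 37.7 FPKM. Thus the summed level of the 3 Sprouty genes was mostly that of Spry2 in both groups, and so was most of its difference.

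Both Spred genes rose, by less than Spry2. Spred1 (ENSMUSG00000027351, chr2:117121374-117182279, plus strand), whose product recruits neurofibromin to the membrane and is mutated in Legius syndrome, was at 6.96, 7.07 and 6.58 FPKM in the Ad-Con libraries and at 10.1, 8.01 and 10.5 FPKM in the Ad-PDK4 libraries. The groups did not overlap, and Ad-PDK4 replicate 2 lay nearest to the Ad-Con values. Spred1 thus had a log2 fold change of 0.46 (SE 0.103), or 1.37-fold with a 95% confidence interval of 1.16 to 1.62, at limma adjusted p = 0.00894.

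Spred2 (ENSMUSG00000045671, chr11:19924375-20024026, plus strand), a close relative that likewise suppresses RAS and ERK signalling, was at 15.1, 16.5 and 13.9 FPKM in the Ad-Con libraries and at 18.6, 20.3 and 18.6 FPKM in the Ad-PDK4 libraries. All 3 Ad-PDK4 libraries were above all 3 Ad-Con libraries. For Spred2 the log2 fold change was 0.34 (SE 0.0748), or 1.26-fold with a 95% confidence interval of 1.12 to 1.43, at limma adjusted p = 0.00807, the smallest change among the 4 genes called. Spred2 was the more abundant of the pair in each library, its FPKM being 2.17, 2.33 and 2.12 times that of Spred1 in the Ad-Con libraries and 1.85, 2.54 and 1.77 times in the Ad-PDK4 libraries, so the ratio overlapped between groups. A stretch of 2.81% of the Spred1 transcript is near-identical to Vps35, and 2.81% of the Spred2 transcript to Gm14612.

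Of the 5 MAP kinase phosphatases, Dusp6 rose and the other 4 did not pass the test. Dusp6 (ENSMUSG00000019960, chr10:99263231-99267489, plus strand) is the cytoplasmic phosphatase that acts on ERK with high selectivity. Its level was 2.81, 3.22 and 3.47 FPKM in the Ad-Con libraries and 4.53, 4.98 and 4.37 FPKM in the Ad-PDK4 libraries. The groups did not overlap, and a wide gap separated them. The means were 3.17 ± 0.334 and 4.62 ± 0.319 FPKM (SD, n = 3 each), a log2 fold change of 0.54 (SE 0.101), or 1.45-fold with a 95% confidence interval of 1.23 to 1.71, at limma adjusted p = 0.00389.

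Dusp5 (ENSMUSG00000034765, chr19:53529109-53542431, plus strand) is the nuclear counterpart that also prefers ERK. It was at 6.24, 5.34 and 6.58 FPKM in the Ad-Con libraries and at 8.02, 7.30 and 5.62 FPKM in the Ad-PDK4 libraries. Ad-PDK4 replicates 1 and 2 were above the Ad-Con range while replicate 3 lay inside it. Its log2 fold change was 0.19 (SE 0.139), with a 95% confidence interval of -0.13 to 0.52 and limma adjusted p = 0.304. Leaving out Ad-PDK4 replicate 3 gave a log2 fold change of 0.34 and an adjusted p of 0.0426. An antisense gene, AC137853.2, shares 22.1% of the Dusp5 transcript, and since the sources used here do not say whether counting used strand, reads of the pair cannot be told apart.

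Dusp1 (ENSMUSG00000024190, chr17:26505590-26508519, minus strand), an immediate early gene whose product inactivates p38, JNK and ERK in the nucleus, was at 44.9, 46.1 and 51.2 FPKM in the Ad-Con libraries and at 55.4, 53.3 and 44.9 FPKM in the Ad-PDK4 libraries. Its groups overlapped, the third Ad-PDK4 library lying at the bottom of the Ad-Con range. The log2 fold change was 0.11 (SE 0.088), or 1.08-fold with a 95% confidence interval of 0.935 to 1.24, at limma adjusted p = 0.366. The interval covers a small difference in either direction. Exons of Dusp1 also overlap Ergic1 on the opposite strand, a gene at 18.2 to 21.1 FPKM in the Ad-Con libraries and 25.05 to 26.9 FPKM in the Ad-PDK4 libraries, and its part in the Dusp1 values was not tested.

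Dusp4 (ENSMUSG00000031530, chr8:34807297-34819894, plus strand), a nuclear phosphatase of ERK, JNK and p38, was at 42.7, 41.5 and 37.7 FPKM in the Ad-Con libraries and at 42.5, 49.9 and 41.5 FPKM in the Ad-PDK4 libraries. The groups overlapped, with Ad-PDK4 replicate 2 the highest of the 6. The log2 fold change was 0.13 (SE 0.0825), or 1.096-fold with a 95% confidence interval of 0.96 to 1.25, at limma adjusted p = 0.236.

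Dusp10 (ENSMUSG00000039384, chr1:184013302-184075636, plus strand), which prefers JNK and p38 to ERK, was at 6.19, 5.49 and 6.80 FPKM in the Ad-Con libraries and at 6.12, 6.57 and 6.52 FPKM in the Ad-PDK4 libraries. The Ad-PDK4 values all fell within the Ad-Con range. Its log2 fold change was 0.06 (SE 0.0885), with a 95% confidence interval of -0.14 to 0.27 and limma adjusted p = 0.617, and it was -0.02 without Ad-Con replicate 2.

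**Figure D2:**
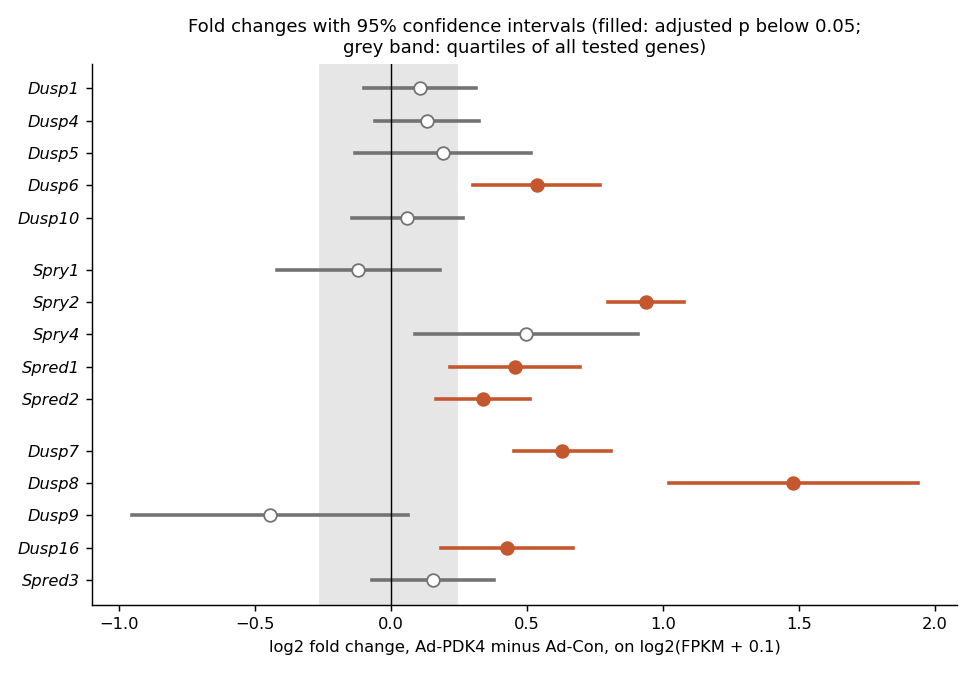
Log2 fold change (horizontal axis, Ad-PDK4 minus Ad-Con, on log2(FPKM + 0.1)) with its 95% confidence interval for the 10 inhibitors and the 5 tested relatives. Filled points have an adjusted p below 0.05, and the grey band spans the quartiles of all tested genes, -0.26 to 0.24. Spry2 at 0.94 and Dusp8 at 1.48 lie farthest to the right, and the points of Dusp1, Dusp4, Dusp5, Dusp10 and Spry1 lie inside the band.

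As a subset, the 5 phosphatases had 1 gene called higher and a median log2 fold change of 0.13. The 5 Sprouty and Spred genes had 3 called higher and a median of 0.46. Both counts stand beside 21.8% of all tested genes called higher. The difference between the subsets was not tested. Dusp1 and Dusp4 together made up 84.1% to 86.2% of the summed FPKM of the 5 phosphatases in the Ad-Con libraries and 84.0% to 84.5% in the Ad-PDK4 libraries. The transcript pool of these 5 phosphatases therefore consisted mainly of genes that were not called, while that of the 3 Sprouty genes consisted mainly of the gene that rose most. The relatives described below, among them Dusp7, Dusp8 and Dusp16, which were called higher, are outside these pools.

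The order of the levels in FPKM, which corrects for transcript length, was nearly the same in both groups. In the Ad-Con libraries Dusp1 stood above Dusp4, followed by Spry2 and Spred2 with overlapping ranges, then by Spred1, Dusp10 and Dusp5, in which each neighbour overlapped the next. Dusp6, Spry1 and Spry4 followed, each below the range of the gene before it. In the Ad-PDK4 libraries the ranges of Dusp1 and Dusp4 overlapped, and those of Spry2 (32.0 to 33.8 FPKM) and Spred2 (18.6 to 20.3 FPKM) no longer did. Spred1, Dusp5 and Dusp10 again overlapped in turn, and the ranges of Spry1 and Spry4 now overlapped too. These orders describe levels within each group, and no test was run between genes.

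The transcripts also differ in a sequence word known to bear on mRNA stability. The word TATTTAT, the core of AU-rich elements that mark many short-lived mRNAs, was counted in the annotated 3′ untranslated region of the longest coding transcript of each gene. It was present in 6 of the 10 inhibitors: Spry4 had 4 copies in 3559 bases, Spred1 had 3 in 4330, Dusp1 had 3 in 690, Spry1 had 2 in 1047, Spry2 had 2 in 856 and Spred2 had 1 in 2579. Dusp4, Dusp5, Dusp6 and Dusp10 had 0. Among 11469 tested coding genes 30.3% held the word, or 44.5% of those with a region of at least 1000 bases (4 of 8 such inhibitors), and the median length of the region was 1112 bases in the inhibitors and 1147 bases in these genes. Genes with and without the word were found both among the 4 that rose and among the 6 that were not called.

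The remaining genes of the same families give the wider setting. Of 7 relatives, 5 passed the filter, 3 were called higher and 0 lower by limma (0 lower also at an unadjusted p below 0.05 and by limma-voom). Over all tested genes, limma called 21.8% higher and 20.8% lower. Dusp7, a cytoplasmic ERK phosphatase closely related to Dusp6, was at 9.02, 8.03 and 7.77 FPKM in the Ad-Con libraries and at 12.3, 13.8 and 12.5 FPKM in the Ad-PDK4 libraries, a log2 fold change of 0.63 (limma, SE 0.0775, adjusted p = 0.000463). Dusp16, which prefers JNK and p38, was at 3.57, 3.14 and 3.58 FPKM against 4.50, 4.21 and 5.26 FPKM, a log2 fold change of 0.43 (limma, SE 0.105, adjusted p = 0.0128). In both genes all Ad-PDK4 libraries lay above all Ad-Con libraries. Dusp8, another phosphatase of JNK and p38, had the largest log2 fold change of the 5 relatives at 1.48 (limma, SE 0.198, adjusted p = 0.00072), from a low level of 0.565, 0.421 and 0.396 FPKM to 1.41, 1.43 and 1.52 FPKM. With a pseudocount of 1 in place of 0.1 this log2 fold change was 0.75, at the same side of the threshold. The Ad-Con mean of Dusp8, 0.461 FPKM, was under the filter's 0.5 FPKM. Dusp8 was thus tested only through its Ad-PDK4 mean of 1.45 FPKM, and the 3 called higher include it.

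Dusp9, an ERK phosphatase of the same cytoplasmic class as Dusp6 and Dusp7, was at 0.993, 1.38 and 1.34 FPKM against 0.929, 1.07 and 0.665 FPKM, and its log2 fold change of -0.45 missed the threshold (adjusted p = 0.14 by limma). Spred3, the third Spred gene, had a log2 fold change of 0.16 (adjusted p = 0.236 by limma), and its groups did not overlap. Dusp2 (0.028 to 0.147 FPKM) and Spry3 (0.341 to 0.718 FPKM) were under the filter.

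The lists of the surrounding pathway are described by counts, with no test of a list, and stand beside the 21.8% of all tested genes called higher and the 20.8% called lower. Among 15 ligands of EGF, FGF, HGF and VEGF receptors, 11 were tested, 9 rose and 0 fell by limma (0 also at an unadjusted p below 0.05, and 0 by limma-voom), with a median log2 fold change of 0.64. Fgf10, a fibroblast growth factor, was at 1.591, 1.597 and 1.69 FPKM against 7.57, 7.89 and 8.16 FPKM, a log2 fold change of 2.21 (limma, SE 0.077, adjusted p = 6.04e-07). Fgf7, also called keratinocyte growth factor, had a log2 fold change of 1.95, and Btc, which encodes the EGF receptor ligand betacellulin, one of 1.04. Of 16 receptor tyrosine kinases 11 were tested, 5 rose and 1 fell, with a median of 0.24. The 5 under the filter were Fgfr2 (0.325 to 0.473 FPKM), Fgfr3, Fgfr4, Erbb3 and Erbb4. Egfr, the EGF receptor, was at 12.4, 13.8 and 13.1 FPKM against 21.8, 22.0 and 22.5 FPKM, a log2 fold change of 0.75 (limma, SE 0.0558, adjusted p = 3.4e-05). Axl, the receptor for Gas6, and Pdgfrb, a receptor for PDGF in smooth muscle, each had a log2 fold change of 0.51. Met, the HGF receptor, was the one that fell, by 0.19 on the log2 scale, and this call held in 8 of 15 alternatives.

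All 20 genes of the RAS and ERK chain were tested, of which 6 rose and 2 fell, with a median log2 fold change of 0.05. Map2k1, which encodes the ERK kinase MEK1, was at 35.4, 37.0 and 36.8 FPKM against 66.7, 66.6 and 66.6 FPKM, a log2 fold change of 0.87 (limma, SE 0.0438, adjusted p = 4.2e-06). The groups lay far apart with almost no spread within the Ad-PDK4 libraries. Ptpn11, a phosphatase that promotes RAS activation, and Hras had log2 fold changes of 0.40 and 0.35. Mapk3, which encodes ERK1, and Map2k5, the kinase of ERK5, fell by 0.30 and 0.32 on the log2 scale.

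In the JNK and p38 chains 23 of 24 genes were tested and 10 rose, with a median log2 fold change of 0.20. No gene fell by limma at the adjusted threshold, whereas 2 did at an unadjusted p below 0.05 and 3 by limma-voom. The largest rises were in Map3k8 (0.86), a kinase upstream of MEK in inflammatory signalling, Mapkapk5 (0.84), a kinase downstream of MAP kinases, and Mapk12 (0.75), a p38 isoform. Map3k8, although upstream of MEK, was counted in this list and not in the RAS and ERK chain.

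Of 15 other inhibitors of receptor tyrosine kinases or RAS, all tested, 4 rose and 2 fell, with a median log2 fold change of 0.13. The receptor phosphatase gene Ptprj (0.78), the phosphatase gene Ptpn2 (0.75) and Lrig1 (0.70), which promotes degradation of EGF receptors, rose most. Il17rd, the FGF signalling inhibitor also called Sef, was at 6.10, 6.57 and 6.32 FPKM against 3.62, 4.04 and 3.77 FPKM, a log2 fold change of -0.72 (limma, SE 0.0741, adjusted p = 0.000183). Pebp1, which encodes the RAF inhibitor RKIP, fell by 0.28 on the log2 scale, a call that was lost without Ad-Con replicate 3 (adjusted p = 0.0538).

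The transcripts commonly induced by ERK moved in both directions: 17 of 18 were tested, 7 rose and 6 fell, with a median log2 fold change of 0.20. Epha2, an ephrin receptor, Gdf15, a stress-induced cytokine, and Lif, a cytokine of the IL-6 family, had log2 fold changes of 1.04, 0.94 and 0.88. The immediate early transcription factor gene Egr1 was at 50.5, 43.0 and 57.9 FPKM against 15.1, 18.3 and 22.3 FPKM, a log2 fold change of -1.45 (limma, SE 0.165, adjusted p = 0.000748). Egr3, of the same family, and the immediate early gene Ier2 fell by 1.77 and 0.86 on the log2 scale. Spry2 and Dusp6, which belong to the same class of induced transcripts, were thus higher in the libraries in which Egr1 was lower. The Ad-PDK4 mean of Egr3, 0.310 FPKM, was under the filter's 0.5 FPKM, so Egr3 was tested only through its Ad-Con mean of 1.25 FPKM.

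**Figure D3:**
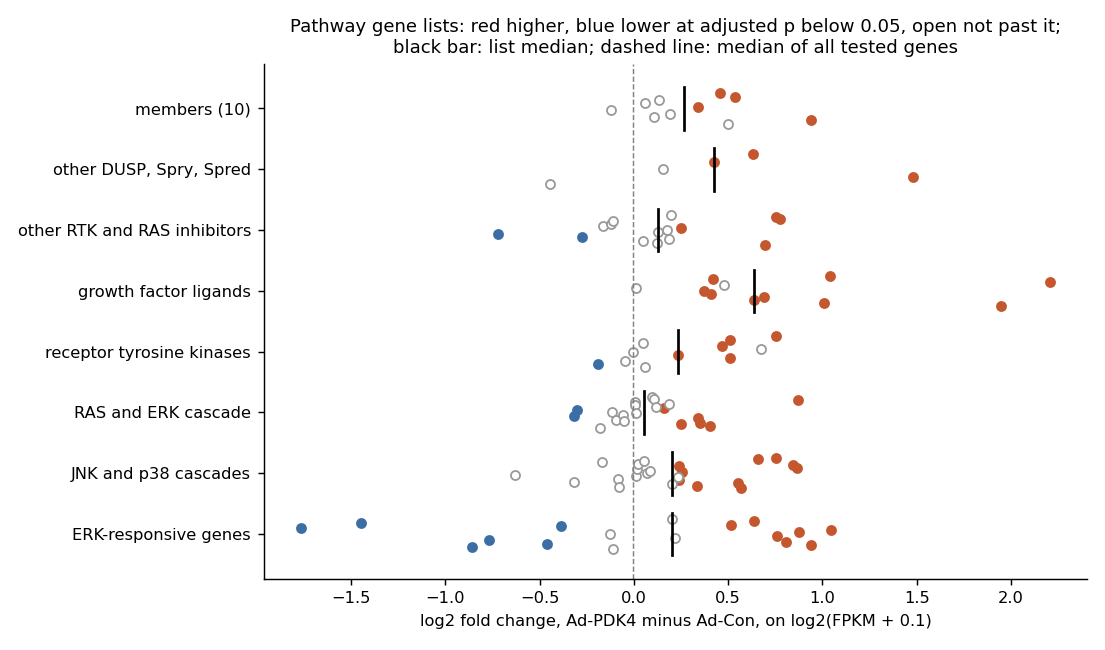
Log2 fold change (horizontal axis, Ad-PDK4 minus Ad-Con, on log2(FPKM + 0.1)) of each tested gene in the 10 inhibitors and 7 lists of the surrounding pathway (rows). Red points were called higher and blue points lower, open points were not called, black bars are list medians and the dashed line is the median of all tested genes. The ligands have the median farthest to the right, at 0.64, and the ERK-responsive genes spread from -1.77 to 1.04.

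The calls of the 10 inhibitors were recomputed under 15 alternatives. Spry2 (log2 fold change 0.89 to 0.98), Spred1 (0.38 to 0.57) and Spred2 (0.28 to 0.40) stayed past the threshold in all 15, and Dusp6 (0.43 to 0.60) in all 14 that gave it a value. Dusp1, Dusp4 and Dusp10 passed it in 0 of 15 and Spry1 in 0 of 14. Spry4 (0.31 to 0.65) and Dusp5 (0.09 to 0.34) were the genes whose call depended on the setting.

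**Figure D4:**
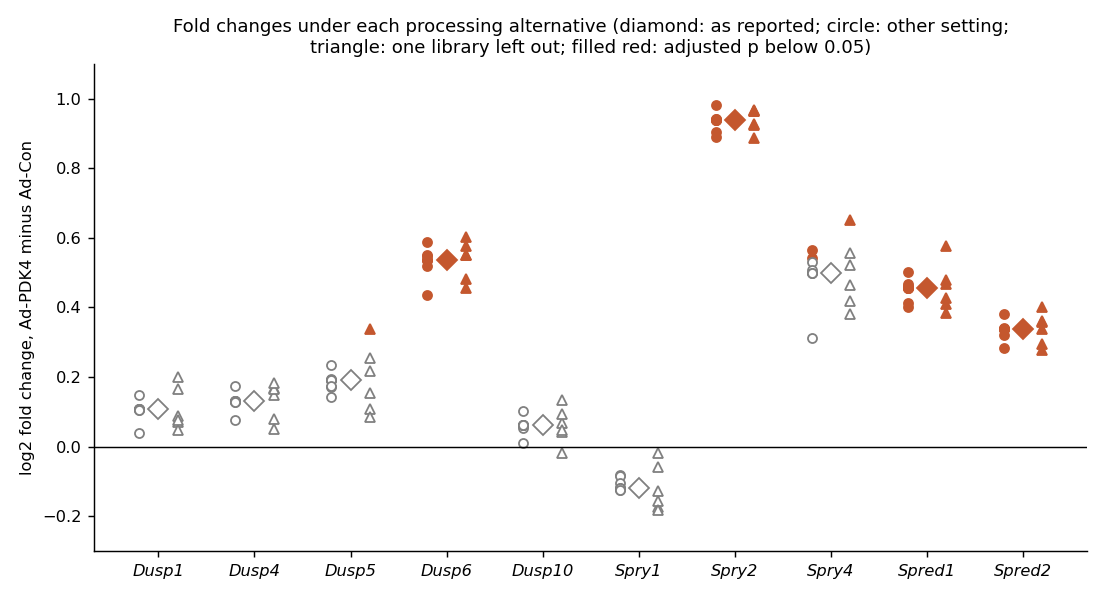
Log2 fold change (vertical axis, Ad-PDK4 minus Ad-Con) of each inhibitor as reported (diamonds), under other processing settings (circles) and with each library left out in turn (triangles). Red symbols have an adjusted p below 0.05. Spry2, Dusp6, Spred1 and Spred2 are red throughout, and Spry4 and Dusp5 are the genes with symbols of both kinds.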

How the data were processed

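The 6 libraries were paired-end RNA-seq on an Illumina HiSeq instrument. The labels name a SMARTER kit and the methods a NEBNext Ultra kit. The submitters' processing notes list CASAVA 1.8, fastp, HISAT2 2.0.5, featureCounts 1.5.0-p3 and DESeq2 1.20.0, without roles, and the build GRCm39. However, 54495 of the 54532 identifiers matched GENCODE M21, and 98.3% of these had the same coordinates on GRCm38, which is therefore the build used here. Whether counting used strand is not given in the sources used here. The authors deposited FPKM per gene and library, without pooling, and 0 columns were left unmapped. Multiplied by gene length, 100% of the non-zero FPKM values were whole multiples of 1 step per library (within 0.01 reads). These multiples are called reads here, and the authors had scaled libraries by median-of-ratios size factors.

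log2(FPKM + 0.1) was fitted with limma 3.58.1 in R 4.3.3 (trend and robust moderation, no covariate) over 13423 genes with a mean of at least 0.5 FPKM, with Benjamini-Hochberg adjustment. The authors used DESeq2 with a 2-fold limit. The script was tested on simulated data. Library totals were 17588942 to 21861872 reads, and replicates are treated as independent. Confidence intervals are limma's 95% intervals. Near-identical sequence (at least 95% over at least 50 bases) was sought with BLAST 2.17.0. Motifs were searched in RefSeq promoters (GRCm38.p6).

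Genes named are the 10 members, Pdk4, the 7 remaining family members and, in each further list, up to 3 with the largest rise and fall among those called. Members and lists were chosen with earlier results of these data known. Alternatives were pseudocounts of 1 and 0.01, no filter, a mean of at least 5 FPKM, TPM, quantile normalization, plain moderation, a replicate block, limma-voom on the recovered reads, and each library left out.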

Additional observations from a re-analysis of the deposited data

How the results depend on the processing

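Rescaling moved the median log2 fold change of all genes by little (0.04 with TPM, -0.04 with quantile normalization). The inhibitors called higher numbered 3 to 5 under the alternatives, and those called lower 0. Genes called higher with at least a 2-fold change numbered 530 over all genes, and 258 when a mean of at least 5 FPKM was required, a filter that tests fewer genes and leaves Dusp6, Spry1 and Spry4 without a value. Spry4 (0.50, adjusted p = 0.0526) passed the threshold with TPM (0.56, adjusted p = 0.0402) and with limma-voom (0.54, adjusted p = 0.0179), and ranged from 0.38 to 0.65 with 1 library left out. With 1 library left out, Dusp5 ranged from 0.0858 to 0.339, passing without Ad-PDK4 replicate 3, and Dusp10 from -0.0184 to 0.134, negative without Ad-Con replicate 2. Dusp1 (0.0474 to 0.199, lowest without Ad-PDK4 replicate 1 and highest without replicate 3, where adjusted p = 0.0568), Dusp4 (0.0491 to 0.183, lowest without Ad-PDK4 replicate 2) and Spry1 (-0.183 to -0.0194, nearest 0 without Ad-PDK4 replicate 1) also moved by over 1.5 times and were not called in any of these fits. The cause of these shifts was not tested. Of the list counts 22 of 330 values moved by over 1.5 times, and of the other named genes 8 of 545 values lost the call (7 of Met, 1 of Pebp1) and none changed sign. With a pseudocount of 1 the low genes Dusp8, Egr3 and Btc gave 0.75, -0.78 and 0.58 in place of 1.48, -1.77 and 1.04.

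Libraries with the same replicate number did not deviate together (correlations of -0.046, -0.0311 and -0.00129), so the values show no pairing by number. Such correlations cannot tell whether same-numbered cultures shared an animal or a batch. With the replicate block, 2759 genes were called higher in place of 2928, the inhibitors called higher stayed at 4, and Spry2 kept 0.94 (adjusted p = 0.000133).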
